A study of Ailuropoda melanoleuca with 25 samples.

Results

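Solute carriers (SLC and SLCO genes) and ATP-binding cassette transporters (ABC genes) that the study listed as tissue-specific were described in 5 tissues of the giant panda. The members were the 98 genes with a name beginning SLC, SLCO or ABCA to ABCG plus a number on the study's list of tissue-specific differentially expressed genes (DEGs), out of 25376 genes in the deposited table. They comprised 89 solute carriers and 9 ABC transporters and belonged to 37 families, 15 of which had a single member. Heart, liver, spleen, lung and kidney were sampled after death from each of 5 pandas, giving 1 library per tissue and panda and 25 libraries. Panda 1 was a female of age 27 with ovarian cancer, and panda 2 was a female of age 9 whose cause of death is labelled "ileac pssion". Pandas 3 and 4 were females and panda 5 a male, all of age 0.5, with coronavirus infection as the cause of death. The labels give ages without a unit.

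Solute carriers move ions, sugars, amino acids, nucleosides, bile acids, drugs and metabolites across cell membranes or across the inner mitochondrial membrane, by facilitated diffusion or by coupling to a gradient of sodium, protons or another solute. ABC transporters spend ATP to export lipids, bile salts, conjugates and peptides. The kidney tubule uses a series of such carriers to take back filtered solutes and to secrete organic anions and cations, and hepatocytes use them to take up nutrients and to form bile.

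The values are FPKM, in which the fragments counted on a gene are scaled by gene length and by library size. The read totals recovered from the values ranged from 13149332 to 21382976 per library (median 16215523). For SLC22A6, the limit that a count of 0 allows (3 reads) was 0.0835 FPKM in the deepest library and 0.136 in the shallowest, for counting error only. All markers with an identifier on fixed lists were highest in their own tissue, namely 10 of 10 for proximal tubule, 12 of 12 for hepatocytes, 8 of 8 for cardiomyocytes, 8 of 8 for alveolar epithelium and 6 of 6 for B cells in the spleen. Only genes on the study's list of tissue-specific DEGs carried an identifier. These counts were therefore largely fixed by that list and are not a check of the tissues. The kidney library of panda 4 stood apart: its summed proximal tubule markers were at 657 FPKM against 3838 to 4675 in the other 4 kidneys. In the liver, panda 3 correlated least with the others (r between 0.769 and 0.840 over 12355 genes, against 0.875 to 0.988 among the other 4 livers). The number of members without overlap and the median differences between young and older pandas are also given without these pandas or libraries. In bulk tissue, fewer cells of a type and less RNA per cell cannot be told apart.

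The contrasts between these same tissues chose the members, so their levels by tissue are a description and were not tested. All 98 members exceeded a mean of 1 FPKM, the threshold for an expressed gene, in 1 tissue or more. Of these, 43 (43.9%) passed it in 1 tissue and 13 passed it in all 5, while 15.5% of all 18701 expressed genes passed it in 1 tissue. The mean was highest in the kidney for 48 members, liver for 27, heart for 9, spleen for 7 and lung for 7. Among all expressed genes the shares were 20.1% for the kidney, 7.04% for the liver, 8.35% for the heart, 34.4% for the spleen and 30.1% for the lung. For 65 members every library of the highest tissue lay above all 20 libraries of the other tissues, against 16.7% of all expressed genes, a share that the choice of the members fixes. Without the kidney library of panda 4 this number was 73, and without the liver library of panda 3 it was 76. Of the 33 overlapping members, 11 were in the kidney and 15 in the liver.

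Among the list entries, the listed tissue had the highest mean in 87, the lowest in 11 and neither in 19. On plain ratios of mean FPKM, the members listed for their highest tissue that lay nearest to the second tissue were SLC26A10 (2.36-fold, heart over spleen), SLC30A1 (2.58-fold, liver over kidney) and SLC51B (2.63-fold, liver over kidney). The list rests on another normalization, so these ratios do not place a member against its fold threshold. Genes just outside the thresholds carry no name in the sources and are not analysed here. A total of 11 members were not listed for the tissue where their mean was highest, and some of them entered the list for a low level. SLC7A7 (highest in the spleen), SLC25A35 (kidney) and SLC9A3 (kidney) were listed for the heart, SLC12A2 and SLC24A5 (both spleen) and SLC35E4 (lung) for the liver. The amino acid carrier SLC38A3 was the one member listed for all 5 tissues.

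**Figure D1:**
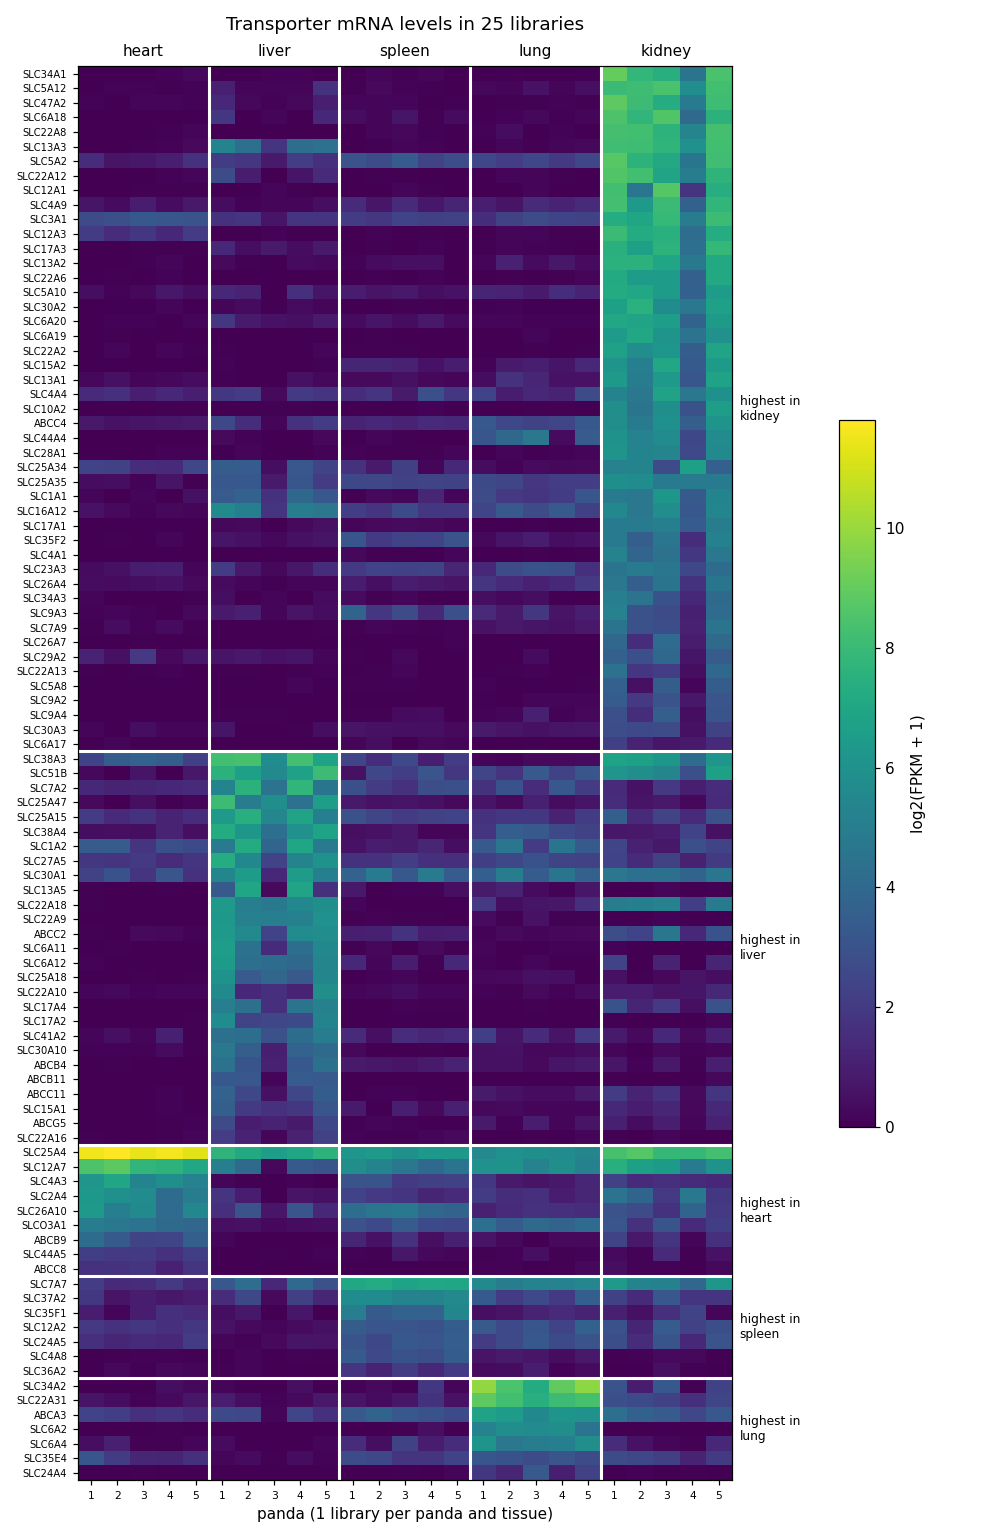
Colour gives log2(FPKM + 1) of 97 members (rows, grouped by the tissue with the highest mean and sorted by that mean) in the 25 libraries (columns, 5 pandas per tissue). Lower values are darker. The kidney members form a block that is darker in panda 4, and the 27 liver members a block that is darker in panda 3. SLC25A4 is at 2489 FPKM or more in every heart.

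The kidney had the largest group, and its leading members take back or secrete solutes along the tubule. SLC34A1 (ENSAMEG00000018145), the sodium-phosphate cotransporter of the proximal tubule, was at 512, 225, 174, 22.1 and 341 FPKM in the kidneys of pandas 1 to 5, with a mean of 255 ± 184 (SD, n = 5). SLC5A12 (ENSAMEG00000004350), a sodium-coupled lactate carrier, was at 265, 279, 341, 54.5 and 298 FPKM. SLC47A2 (ENSAMEG00000004335), which extrudes organic cations into the urine in exchange for protons, was at 473, 270, 157, 27.1 and 283 FPKM. In all of these the library of panda 4 was lowest, and even it lay above every library of the other tissues. The amino acid carrier SLC6A18 (ENSAMEG00000010403) was at 363, 220, 391, 16 and 193 FPKM and did not exceed 2.78 FPKM outside the kidney. Reads of SLC47A2 are uncertain, because 2 further entries described as multidrug and toxin extrusion protein 2 or 2-like had kidney means of 33.4 and 37.9 FPKM.

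SLC22A8 (ENSAMEG00000005991) encodes OAT3, which takes up organic anions such as drugs from the blood into proximal tubule cells. It was at 321, 298, 197, 40.3 and 316 FPKM in the kidneys of pandas 1 to 5 (mean 234 ± 120, SD, n = 5). Outside the kidney it was at 0 in 11 of 20 libraries and reached at most 0.325 FPKM, in the lung of panda 2. The kidney was therefore far above the other tissues, while heart (mean 0.0349), liver (0.00604), spleen (0.0713) and lung (0.0968) did not differ beyond their spread, with ranges that all began at 0. The 5 named genes with the most similar pattern, by Pearson r of log2(FPKM + 1) over the 25 libraries and among 1777 named genes, were RHCG (r = 0.9986), KLK1 (0.9976), PAX8 (0.9973), SLC6A19 (0.9969) and SLC13A2 (0.9968). These values rest on the gap between 5 kidney libraries and 20 libraries near 0 and on a shared low kidney library in panda 4.

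The SLC22 family of organic ion carriers had the most members, 10, which divided between 3 tissues. In the kidney were SLC22A8, SLC22A6 (OAT1, mean 96.9 FPKM), SLC22A12 (the urate carrier URAT1, 209), SLC22A2 (the cation carrier OCT2, 72.6) and SLC22A13 (8.41). In the liver were SLC22A18 (48.9), SLC22A9 (48.5), SLC22A10 (22.0) and SLC22A16, a carnitine carrier and the lowest of the family with 3.43, 1.22, 0.166, 1.11 and 3.88 FPKM in pandas 1 to 5. SLC22A31, of unknown substrate, was the highest of the family and belonged to the lung. Summed over the 10 members, the means were 653 ± 357 FPKM in the kidney, 312 ± 113 in the lung and 124 ± 73.6 in the liver (SD, n = 5), against 1.42 in the spleen and 0.758 in the heart. These sums leave out listed family entries without an SLC name. One described as solute carrier family 22 member 3 was highest in the heart (mean 18 FPKM). Entries described as member 11 or 11-like had kidney means of 17.5 and 13.1 FPKM.

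The SLC5 family was the one family of 4 or more members with all its means highest in the kidney. After SLC5A12, SLC5A2 (SGLT2, which reabsorbs most of the filtered glucose) had a mean of 214 FPKM and SLC5A10, a carrier of mannose and fructose, one of 95.5. The lowest, the monocarboxylate carrier SLC5A8, was at 11.2, 0.464, 10.1, 0.165 and 10.1 FPKM in pandas 1 to 5. It was below 1 FPKM in pandas 2 and 4 and near 10 in the other 3. The dicarboxylate and sulfate carriers of SLC13 followed the kidney for SLC13A3 (295, 280, 208, 62.4 and 301 FPKM), SLC13A2 (mean 134) and SLC13A1 (mean 63.4), whereas the citrate carrier SLC13A5 was a liver gene.

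Amino acid carriers were numerous in the kidney. The luminal neutral amino acid carriers SLC6A19 and SLC6A18 had means of 74.1 and 237 FPKM, and the proline carrier SLC6A20 had 88.9. SLC3A1 and SLC7A9, the subunits of the cystine carrier that are mutated in cystinuria, had kidney means of 165 and 11.7 FPKM. The vesicular carrier SLC6A17 was the lowest SLC6 member, at 3.76, 1.26, 0.658, 0.788 and 1.71 FPKM in the kidneys of pandas 1 to 5. The peptide carrier SLC15A2 (65.9) and the glutamate carrier SLC1A1 (35.2) were also highest there.

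SLC12A1, the sodium-potassium-chloride cotransporter of the thick ascending limb and target of loop diuretics, was at 304, 24.1, 415, 2.47 and 161 FPKM in the kidneys of pandas 1 to 5. It was low in pandas 2 and 4. Summed markers of the thick ascending limb and distal tubule were low in the same libraries, at 1291, 335, 2029, 29.2 and 969 FPKM, and their part in the level of SLC12A1 was not tested. SLC12A3, the thiazide-sensitive cotransporter, was at 262, 151, 182, 17.9 and 159 FPKM. The anion exchanger SLC4A9 of intercalated cells led the SLC4 family, at 306, 81.5, 265, 11.9 and 221 FPKM. SLC4A4, the sodium-bicarbonate cotransporter of the proximal tubule (mean 51.7), SLC4A1 (20.1), SLC26A4 or pendrin (16.8) and SLC26A7 (9.84) completed the kidney bicarbonate carriers. The sodium-proton exchangers SLC9A3 (13.3), SLC9A2 (5.63) and SLC9A4 (5.41) were lower.

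Further kidney members were the zinc carriers SLC30A2 (184 FPKM in panda 2 and 25.7 to 106 in the others) and SLC30A3. The latter was the lowest of its family, at 5.82, 5.14, 5.42, 0.423 and 3.96 FPKM in pandas 1 to 5. The bile acid carrier SLC10A2, known from the ileum, had a mean of 48.6 FPKM in the kidney and at most 0.0955 FPKM in any other library. The nucleoside carrier SLC28A1 (40.0), the choline carrier family member SLC44A4 (41.7), the phosphate carrier SLC34A3 (15.7) the nucleoside carrier SLC29A2 (8.53), SLC35F2 (20.4), SLC23A3 (19.2) and the exporter ABCC4 (44.1) were highest in the kidney too. SLC16A12, a creatine carrier, was near parity, with 34.8 FPKM in the kidney and 27.7 in the liver, and the order turned with 2 other scalings or without panda 3.

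The kidney library of panda 4 was the lowest of the 5 for 44 of the 48 kidney members, while 46.9% of all 15173 genes expressed in the kidney were lowest there. Its median difference from the mean of the other 4 kidneys was -2.67 for these members and -0.49 for all expressed genes, on the log2(FPKM + 1) scale. The count was 44 with quantile normalization and with median-of-ratios size factors, against 33.7% and 36.1% of all genes. Markers were low in the same library: 84.8 against 650 to 877 FPKM summed over intercalated and collecting duct cells, and 9.77 against 122 to 411 over the podocyte genes. Among 28 transport partners with an identifier, such as scaffold, channel and regulator genes, 26 were highest in the kidney and 25 of these were lowest in panda 4. Many of these partners are also on the tubule marker lists, among them LRP2, CUBN, PDZK1, AQP1, KCNJ1, CLDN16, RHCG and AQP6. The partner count and the marker sums therefore do not come from separate sets of genes. The count of 26 was largely fixed, because only genes on the list of tissue-specific DEGs carried an identifier. The part of these markers in the result was not tested.

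The 4 kidney members that were not lowest there were SLC4A4, SLC6A17, SLC25A35 and SLC25A34. SLC25A34, a mitochondrial carrier, was at 36.8, 38.7, 5.64, 105 and 11.5 FPKM in the kidneys of pandas 1 to 5. It was highest in panda 4, the one kidney member for which this held. Among the partner genes the membrane carbonic anhydrase CA4 was also highest there, at 368 FPKM in panda 4 against 167 to 224 in the others.

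**Figure D2:**
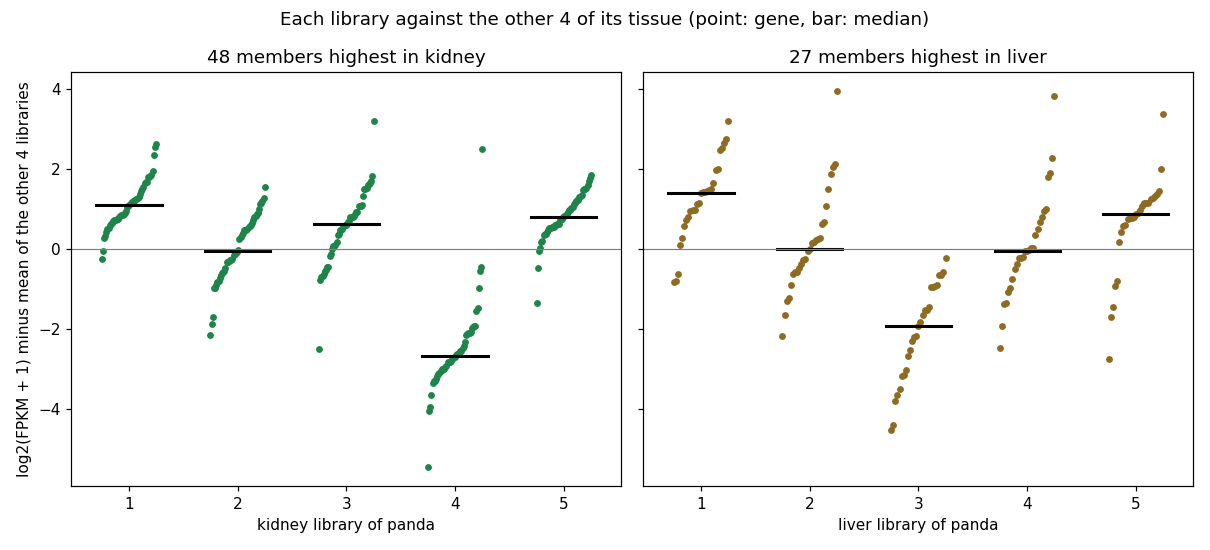
Each point is a member, the vertical axis is its log2(FPKM + 1) in 1 library minus the mean of the other 4 libraries of the tissue, and bars are medians (left, 48 kidney members; right, 27 liver members). The kidney median is -2.67 in panda 4 and between -0.04 and 1.09 in the others, and the liver median is -1.91 in panda 3 and between -0.06 and 1.39 in the others.

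Liver members comprised amino acid carriers, bile acid carriers, mitochondrial carriers and exporters. SLC38A3 (ENSAMEG00000011870), a glutamine carrier, was at 305, 328, 52.5, 307 and 116 FPKM in the livers of pandas 1 to 5 (mean 222 ± 128, SD, n = 5). It was second highest in the kidney, at 115, 103, 75.4, 16.8 and 69.8 FPKM, and the tissues overlapped. SLC51B (ENSAMEG00000002772), a subunit of the basolateral bile acid exporter OST, was at 194, 100, 49.2, 109 and 277 FPKM, and its kidney mean of 55.4 was second. SLC7A2 (ENSAMEG00000013690), which takes up arginine and other cationic amino acids, was at 38.7, 192, 21.4, 217 and 23 FPKM and reached at most 8.31 elsewhere. Its values were high in pandas 2 and 4 and lower in the other 3.

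Mitochondrial carriers of the SLC25 family split between liver, kidney and heart. SLC25A47 (ENSAMEG00000011125), a carrier of the liver mitochondrion, was at 272, 29.8, 54.5, 20.8 and 95.1 FPKM. SLC25A15 (ENSAMEG00000011723), which exchanges ornithine and citrulline for the urea cycle, was at 79.2, 174, 43.8, 118 and 33.1 FPKM. SLC25A18, a glutamate carrier and the lowest of the family, was at 63.0, 9.62, 13.7, 8.79 and 41.2 FPKM. SLC25A47 and SLC25A18 were high in pandas 1 and 5, and SLC25A15 was high in pandas 2 and 4.

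The top pair of liver libraries was pandas 1 and 5 for 20 of the 27 members, pandas 2 and 4 for 6 and pandas 4 and 5 for ABCB11. The 6 were SLC38A3, SLC7A2, SLC25A15, the citrate carrier SLC13A5, the glutamate carrier SLC1A2 and the zinc exporter SLC30A1. SLC13A5 was at 9.09, 126, 0.237, 117 and 2.09 FPKM in pandas 1 to 5, and SLC1A2 at 29.1, 153, 13.3, 127 and 27.4. In the opposite direction, SLC22A10 was at 49.7, 1.59, 2.01, 1.20 and 55.4 FPKM, and SLC17A2 at 53.3, 4.40, 4.75, 5.33 and 39.6. Pandas 2 and 4 differ in age and labelled cause of death, as do pandas 1 and 5. The top pairs were not counted over all genes expressed in the liver or with other scalings. The division of the members by top pair can therefore not be called particular to them. Over all genes expressed in the liver, pandas 2 and 4 correlated most (r = 0.988) and pandas 1 and 5 next (0.948), as a description over 12355 genes of the same libraries. These pairs were also among the most alike in other tissues, with exceptions. Pandas 2 and 4 came first in heart (0.967) and lung (0.980) and second in spleen (0.968), and pandas 1 and 5 came first in spleen (0.974) and kidney (0.963) and second in lung (0.969). In the kidney, however, pandas 2 and 4 had rank 7 (0.883), and in the heart pandas 1 and 5 had rank 3 (0.960). The pairs cross the groups of young and older pandas compared further on. The summed hepatocyte markers were at 32431 and 31641 FPKM in pandas 2 and 4 and at 58071 and 59654 in pandas 1 and 5, and their part in this division was not tested.

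The liver library of panda 3 was the lowest of the 5 for 20 of the 27 liver members, against 64.6% of all genes expressed in the liver, with a median difference of -1.91 for the members and -1.04 for all genes. With other scalings the count was 16 (quantile) and 12 (median-of-ratios), against 36.7% and 36.3% of all genes. The hepatocyte markers were not low there, at 60698 FPKM, the highest of the 5 livers.

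ABCC2 (MRP2), which exports bilirubin conjugates into bile, led the ABCC family at 80.3, 49.9, 4.21, 51.2 and 53.5 FPKM in the livers of pandas 1 to 5. ABCB11, the bile salt export pump, was at 8.43, 8.25, 0.108, 9.98 and 8.73 FPKM, and ABCB4, which flips phosphatidylcholine into bile, was at 20.8, 7.26, 1.15, 8.62 and 19.4. All 3 were lowest in panda 3, and the liver range of ABCC2 overlapped that of the kidney, which reached 23.6 FPKM. SLC27A5, which activates bile acids, had a mean of 62.0 FPKM. The GABA and betaine carriers SLC6A11 (36.6) and SLC6A12 (35.6), the amino acid carrier SLC38A4 (85.1), the manganese exporter SLC30A10 (13.1), the magnesium carrier family member SLC41A2 (18.5) the peptide carrier SLC15A1 (5.38), the exporter ABCC11 (6.52) and the sterol exporter ABCG5 (2.67) were also highest in the liver.

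Neighbouring members did not always share a tissue. In the RefSeq order of protein-coding genes of another assembly, 11 members stood in 4 runs with no other protein-coding gene between them. Of the runs, 2 had a single highest tissue (SLC6A18 with SLC6A19, and SLC9A2 with SLC9A4, all kidney). The run SLC17A2, SLC17A3, SLC17A1, SLC17A4 of organic anion and phosphate carriers read liver, kidney, kidney, liver. SLC17A3, the highest of the family, was at 179, 104, 201, 18.7 and 230 FPKM in the kidneys of pandas 1 to 5 and at most 1.5 in any other tissue. SLC17A1 was at 28.5, 29.1, 33.5, 9.72 and 31.3 FPKM in the kidney. On either side, SLC17A2 was at 0 in 17 of all libraries and had a kidney mean of 0.0419 FPKM, and SLC17A4 was at 32.1, 19.4, 2.06, 22.1 and 34.5 FPKM in the liver with a kidney mean of 3.63. The run SLC22A6, SLC22A8, SLC22A10 read kidney, kidney, liver. Reads that fit several related genes of such runs could have been assigned otherwise, which limits the lowest of these values.

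**Figure D3:**
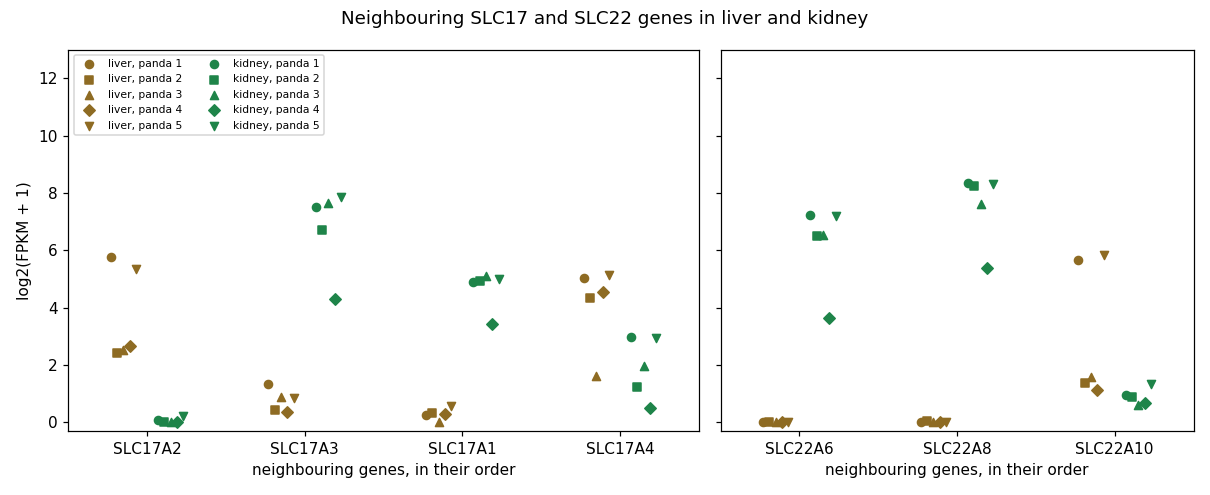
Points are libraries (liver brown, kidney green, symbol by panda) of 2 runs of neighbouring genes, and the vertical axis is log2(FPKM + 1). SLC17A3 and SLC17A1 are high in the kidney between SLC17A2 and SLC17A4, which are high in the liver, and SLC22A10 is high in the livers of pandas 1 and 5 alone.

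The heart had 9 members and the highest single level. SLC25A4 (ENSAMEG00000008743), the ADP/ATP carrier of heart and muscle mitochondria, was at 3016, 3594, 2724, 3084 and 2489 FPKM in the hearts of pandas 1 to 5 (mean 2981 ± 417, SD, n = 5), and at most 414 in any other library. SLC12A7 (ENSAMEG00000008069), a potassium-chloride cotransporter, was at 362, 463, 215, 200 and 135 FPKM. Its lowest heart, that of panda 5, overlapped the kidney, which reached 169 FPKM. SLC4A3 (ENSAMEG00000016909), a chloride-bicarbonate exchanger of cardiac muscle, was at 71.4, 122, 38.9, 58.2 and 37.2 FPKM, all above the other tissues. SLC2A4 (GLUT4), the insulin-responsive glucose carrier, had a mean of 47.8 FPKM. ABCC8, the sulfonylurea receptor subunit of potassium channels, was the lowest of its family, at 2.19, 2.27, 2.54, 1.15 and 2.54 FPKM. SLC26A10 (45.2), SLCO3A1 (21.3), ABCB9 (9.16) and SLC44A5 (3.07) were the other heart members.

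In the spleen, SLC7A7 (ENSAMEG00000007223), a cationic amino acid exchanger of macrophages and epithelia, was at 130, 153, 116, 133 and 125 FPKM in pandas 1 to 5 and at most 79.9 elsewhere. SLC37A2 (ENSAMEG00000000898), a sugar-phosphate exchanger of the endoplasmic reticulum found in macrophages, was at 52.0, 52.3, 38.0, 37.6 and 46.2 FPKM. SLC35F1 (ENSAMEG00000003576) was at 32.5, 9.31, 12.2, 12.1 and 42.4 FPKM, high in pandas 1 and 5. Among the other 4 spleen members, SLC4A8 was the lowest of the SLC4 family, at 9.13, 5.18, 6.77, 6.05 and 10.2 FPKM. SLC12A2, the lowest of the SLC12 family, was at 10.2, 8.01, 7.74, 6.80 and 10.2 FPKM and overlapped the lung, as did SLC24A5, whereas the proline and glycine carrier SLC36A2 (mean 2.28) did not.

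In the lung, SLC34A2 (ENSAMEG00000018105), the phosphate carrier of alveolar type II cells, was at 939, 357, 154, 487 and 891 FPKM in pandas 1 to 5. Its relatives SLC34A1 and SLC34A3 were kidney genes, so each of the 3 SLC34 members had its libraries in the highest tissue above all others. SLC22A31 (ENSAMEG00000007952) was at 477, 302, 166, 272 and 331 FPKM. ABCA3 (ENSAMEG00000017862), which loads lipids into surfactant bodies, was at 110, 90.2, 44.0, 68.2 and 63.1 FPKM. All 3 were lowest in panda 3 and highest in panda 1. The summed alveolar markers were 50254, 16756, 15099, 22740 and 47302 FPKM in the same libraries, and their part was not tested. Reads of SLC22A31 are uncertain, because a further entry described as the same gene had a lung mean of 98.3 FPKM. The noradrenaline carrier SLC6A2 (44.0) and the serotonin carrier SLC6A4 (42.8) were lung genes as well, and SLC6A2 was at 0 in 15 of all libraries. The sodium-calcium exchanger SLC24A4 (3.62) and SLC35E4 (6.76) were lower, and SLC35E4 moved to the heart with 2 other scalings.

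**Figure D4:**
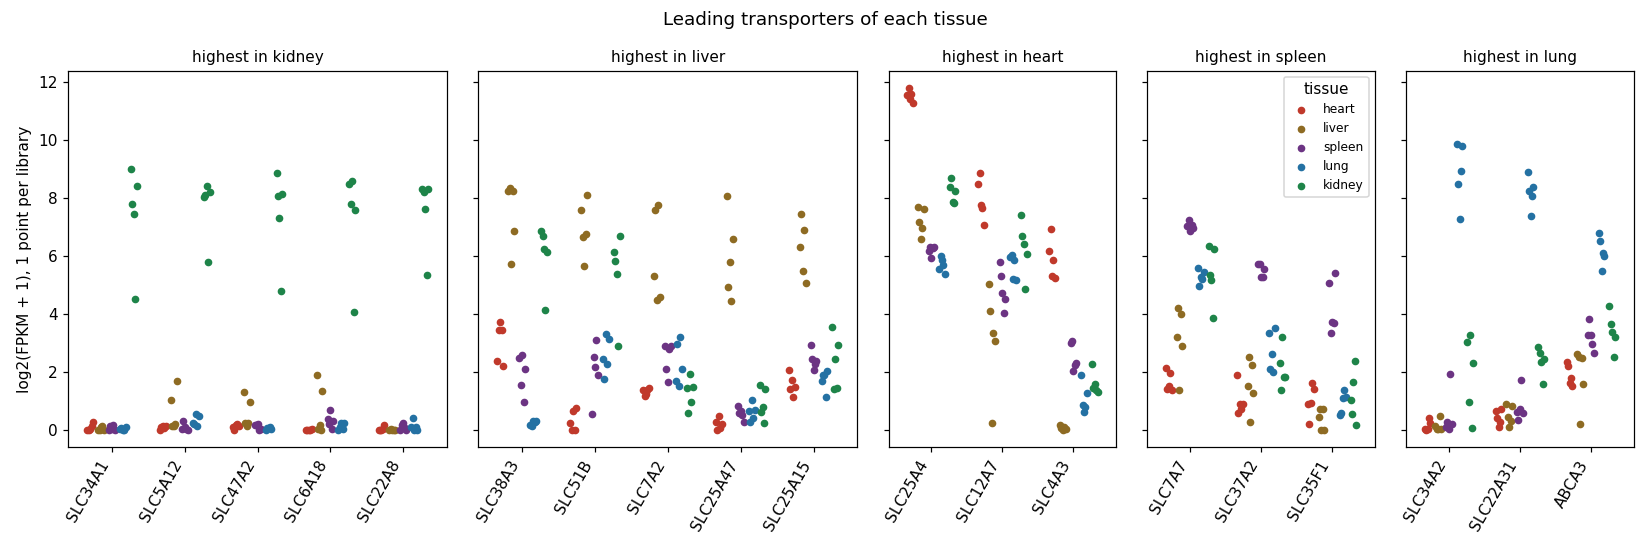
Each point is 1 library (5 per tissue, coloured by tissue) of the leading members of each tissue, on a log2(FPKM + 1) axis. In the kidney panel the green points of the kidney are far above the rest, with the library of panda 4 lowest, while SLC38A3, SLC51B and SLC12A7 overlap with the kidney.

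The comparison that the choice of members did not use was between the 3 young pandas (3, 4 and 5) and the 2 older pandas (1 and 2) within each tissue. Age, cause and year of death coincide in these groups and cannot be told apart. No member passed an adjusted p of 0.05 in any tissue with limma, among 29 tested in heart, 46 in liver, 38 in spleen, 40 in lung and 79 in kidney, and 0% of all genes tested did. At an unadjusted p below 0.05 there were 5 members in heart (4.41% of all genes), 1 in liver (0.704%), 2 in spleen (10.6%), 1 in lung (1.14%) and 5 in kidney (3.01%). The limma-voom fit on recovered reads called 0 in each tissue as well, with 6, 0, 2, 1 and 3 members at an unadjusted p below 0.05 in the same order.

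The median log2 difference, young minus older, of the tested members was -0.26 in heart (-0.02 for all genes), -0.85 in liver (-0.39), -0.02 in spleen (0.03), -0.07 in lung (0.08) and -0.55 in kidney (0.03). With quantile normalization the liver medians were -0.48 and 0.00. Without panda 3 the liver medians were -0.26 and -0.08, and without panda 4 the kidney medians were 0.01 and 0.21. The young-older difference was also compared between kidney and liver within pandas. With limma, 0 of 91 members and 0% of all genes passed, with 0 members at an unadjusted p below 0.05 (0.184% of all genes).

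SLC12A7 was lower in every young library than in both older libraries in all 5 tissues. In the heart it was at 362 and 463 FPKM in pandas 1 and 2 and at 215, 200 and 135 in pandas 3, 4 and 5, a log2 difference of -1.18 ± 0.31 (SE) with a limma adjusted p of 0.999 (0.454 to 1 over the alternatives). In the spleen it was at 55.3 and 38.9 against 25.5, 15.4 and 22.2 FPKM, a difference of -1.13 ± 0.30 (limma adjusted p = 0.304, 0.232 to 1 over the alternatives). The older libraries were separate from the young ones in both tissues, but the differences did not pass the correction over all genes. In the kidney the values were 169 and 103 against 85.1, 28.3 and 67.0 FPKM, and in the liver 32.2 and 16.1 against 0.197, 9.23 and 7.44. The gap was narrowest in the lung, with 62.0 and 65.3 against 36.2, 57.9 and 35.1 FPKM.

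ABCA3 was the other member with this order in all 5 tissues, among 13 members expressed in all of them. Of all genes expressed in the 5 tissues 1.41% had it (149 of 10586), and 0.255% were higher in the young in all 5. The tissues come from the same 5 animals and do not repeat the comparison independently. In the lung ABCA3 differed by -0.78 ± 0.31 (limma adjusted p = 1, 0.781 to 1 over the alternatives). Among members expressed in a tissue, those lower in all young libraries without overlap numbered 8 of 29 for heart (11.4% of all genes), 6 of 46 for liver (15.2%), 9 of 38 for spleen (15.8%), 3 of 40 for lung (5.43%) and 13 of 79 for kidney (12.1%). Those higher numbered 2 for heart (6.76%), 0 for liver (2.74%), 2 for spleen (11.5%), 3 for lung (7.85%) and 0 for kidney (7.65%).

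**Figure D5:**
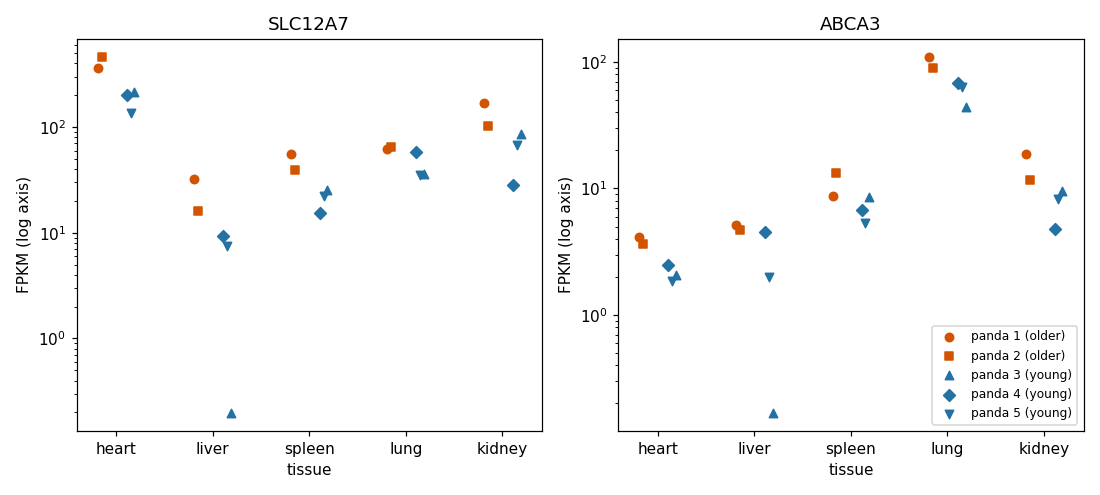
FPKM on a log axis of SLC12A7 and ABCA3 in each tissue, with the older pandas 1 and 2 in orange and the young pandas 3, 4 and 5 in blue. In every tissue both orange points lie above the 3 blue points, in the lung for SLC12A7 by 62.0 against 57.9 FPKM.

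In the kidney, calls depended on panda 4. Without that panda limma called 5 of 77 members (1.52% of all genes). SLC4A4 was higher in the young by 1.37 ± 0.37 (SE; limma adjusted p = 0.0198), with 111 and 59.6 FPKM in pandas 3 and 5 against 38.0 and 25 in pandas 1 and 2. SLC12A1 was higher by 1.57 ± 0.35 (limma adjusted p = 0.00167), although its values overlapped, with 415 and 161 against 304 and 24.1 FPKM. Lower in the young were 3 members. SLC25A34 differed by -2.09 ± 0.49 (limma adjusted p = 0.0036), with 5.64 and 11.5 against 36.8 and 38.7 FPKM. SLC2A4 differed by -2.22 ± 0.63 (limma adjusted p = 0.0355), with 2.91 and 2.76 against 21.7 and 13.1 FPKM, and the urate carrier SLC22A12 by -1.11 ± 0.32 (limma adjusted p = 0.0428), with 120 and 207 against 386 and 302. The groups were separate in 4 of the 5 members, but the same fit picked these members and the share over all genes was not counted. The library left out, at 25.1 FPKM for SLC4A4, 105 for SLC25A34 and 25.5 for SLC2A4, lay on the side of the older pandas. At 2.47 FPKM for SLC12A1 it lay below both older pandas, against the called direction. Only at 29.7 FPKM for SLC22A12 did it lie on the side of the young. The fit without panda 4 drew each gene's variance almost fully to the trend (prior degrees of freedom 427, against 5.09 with all 5 pandas). Without a trend in the variance, and with limma-voom, 0 members and 0 genes were called without panda 4, with 9 and 16 members at an unadjusted p below 0.05.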

How the data were processed

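mRNA of 5 tissues from 5 giant pandas was sequenced with paired-end reads. The authors used HISAT2 (alignment to ailMel1), Cufflinks (assembly of further genes) and HTSeq (union counting), and deposited FPKM values without stated normalization between libraries. They called DEGs with a negative binomial model. Names were taken from a list read from page images, and 94 of the 98 symbols were present in the RefSeq gene table, which served for gene order only. The members and gene lists were chosen with earlier results of these data known. Members were named by a fixed rule, and 1 of them counts in the totals but is not reported here by name. Values per library were given for the leading 5 kidney, 5 liver, 3 lung, 3 heart and 3 spleen members, SLC22A8, called members and the highest and lowest member of families of 4 or more. Of 37 transport partners, 28 had an identifier, and an erythroid list had none (0 of 9) and was not used.

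Whole reads were recovered from the steps of the FPKM values for 24206 of 24207 genes, within 0.01 reads. Genes with a mean above 1 FPKM in a tissue were tested on log2(FPKM + 1) with limma 3.58.1 in R 4.3.3 (variance trend, two-sided, Benjamini-Hochberg over all genes, adjusted p below 0.05). The fit was run on simulated independent libraries with larger changes than those given here, so its power for these was not shown. The log scale understates changes of low genes. Libraries with the same number were taken to come from the same panda. After removal of tissue means, 49 of 50 such pairs correlated above 0.1 (median 0.37, against -0.12 between pandas). The exception was a kidney-liver pair (0.06), so 4 kidney-liver pairs exceeded 0.1, and the kidney minus liver comparison rests on this pairing. No 2 libraries of a tissue agreed within sampling noise. Alternatives were other normalizations, pseudocounts and filters, recovered reads, panda as a block, and pandas left out. Figures were drawn with matplotlib 3.10.9.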

Additional observations from a re-analysis of the deposited data

Results flagged for a closer look

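In the tissue where each member was highest, 4 of the 98 groups of 5 libraries held a library far from the other 4, and chance alone flags about 1 in 20 such groups. ABCB11, the bile salt export pump, was at 0.108 FPKM in the liver of panda 3, where the nearest other liver was at 8.25. SLC17A1 was at 9.72 FPKM in the kidney of panda 4, with the nearest at 28.5, and SLC5A12 was at 54.5 FPKM in the same library, with the nearest at 265. ABCC8 was at 1.15 FPKM in the heart of panda 4, with the nearest at 2.19.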

How the results depend on the processing

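No member was called between young and older pandas in any tissue under quantile normalization, size factors, a pseudocount of 0.1, either filter or limma-voom. With the replicate block (panda), 0 members were called in each tissue, and the kidney minus liver comparison, paired by panda, called 0 with and without pairing. Leaving out each panda gave 0 to 5 called members in the kidney, with the 5 from leaving out panda 4, and 0 to 0 elsewhere. Those 5 fell to 0 with limma-voom or no variance trend, alternatives chosen after seeing the data, as were those without single libraries and other scalings of the counts of lowest libraries. The number of members highest in the kidney was 47 or 48 and in the liver 27 or 28 throughout. Members without overlap numbered 65 to 84, and the share over all genes was counted for the main setting only. The 20 liver members lowest in panda 3 became 12 with median-of-ratios size factors, and the cause was not tested. A threshold of 2 FPKM left 96 members expressed and a demand of 1 FPKM in every library of a tissue 83. Depth limits values near the 3 reads that a count of 0 allows, and 64 members were at 0 in at least one library.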
